A study of Mus musculus with 4 samples.

Results

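The Schlafen genes are a mouse family clustered on chromosome 11, and 7 of them (Slfn1, Slfn2, Slfn3, Slfn4, Slfn5, Slfn8 and Slfn9) are described here across stromal cells of the large intestine. They were taken by gene symbol, and all 7 were found among the 23284 rows of each file. The 4 libraries, 1 per group, came from mice of the strain C57BL/6J, IL-10 knockout (KO) or wild type (WT), and of the strain BALB/c, Rag2 KO or WT. Messenger RNA was sequenced from live cells that were positive for the glycoprotein podoplanin, which fibroblasts and lymphatic endothelial cells carry, and negative for the leukocyte protein CD45, the endothelial protein CD31 and the epithelial protein EpCAM. Mice without IL-10 lack a cytokine that restrains intestinal inflammation, and mice without Rag2 lack the recombinase that T and B cells need to mature. The labels give no age or sex, no number of animals behind a library, and no allele beyond the knockout name. Since each group is 1 library, the spread between animals is unknown and no test between groups was made, and "higher" or "lower" describes these libraries.

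Schlafen proteins take their name from the German word for sleeping, because forced Slfn1 expression arrests the growth of mouse thymocytes. The short members Slfn1 and Slfn2 hold little more than the conserved Schlafen core, Slfn3 and Slfn4 carry an added linker region, and the long members Slfn5, Slfn8 and Slfn9 end in a helicase-like domain. Several of the genes respond to type I interferon in mouse fibroblasts and macrophages, Slfn2 keeps mouse T cells and monocytes quiescent, and Slfn4 is known from mouse macrophages and from suppressive myeloid cells of the stomach.

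The family occupies 263.8 kb of chromosome 11 in GRCm38, the assembly also called mm10. Slfn5 is the first member, at 82951349 to 82964850 on the plus strand. Slfn9 (82974316 to 82991830) and Slfn8 (83002125 to 83020810) follow on the minus strand. Slfn2 (83065112 to 83070678), Slfn1 (83116820 to 83122670), Slfn4 (83175172 to 83190216) and Slfn3 (83191330 to 83215154) lie beyond them on the plus strand. The longest annotated coding sequences had 337 codons in Slfn1 and 378 in Slfn2, 640 in Slfn3 and 602 in Slfn4, and 884 in Slfn5 and 910 in both Slfn8 and Slfn9 (GENCODE M21).

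Coding identity showed a block of Slfn1 to Slfn4, a pair of Slfn8 and Slfn9, and Slfn5 apart from both. Within the set Slfn1, Slfn2, Slfn3 and Slfn4, the 6 pairs were 71.7% to 92.2% identical over their aligned bases, and the highest value was that of Slfn3 with Slfn4. Slfn8 and Slfn9 were 92.7% identical, and Slfn5 was 64.6% identical to Slfn8 and 64.3% identical to Slfn9. The 12 pairs that join a gene of Slfn1 to Slfn4 to Slfn5, Slfn8 or Slfn9 were 61.2% to 67.8% identical, a range that also holds the values of Slfn5 with Slfn8 and Slfn9.

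**Figure D1:**
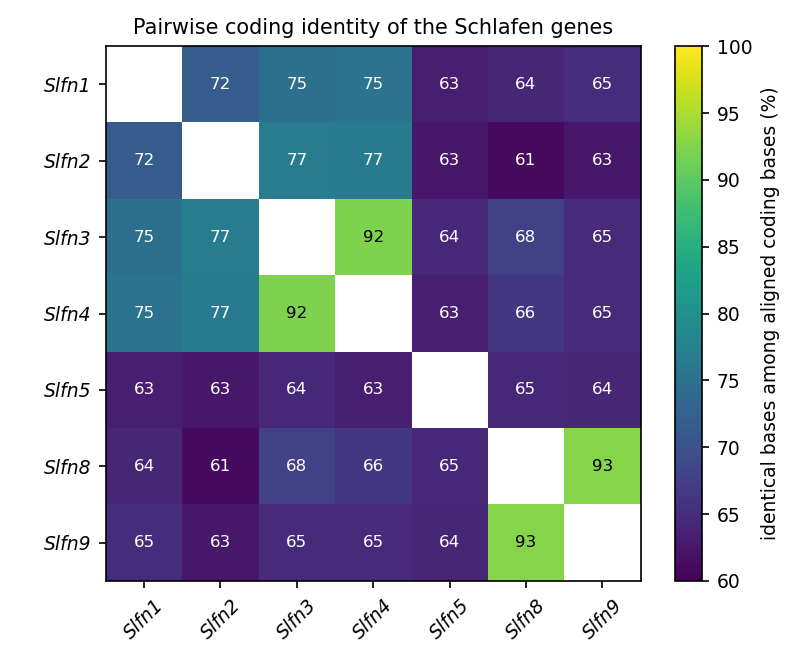
Percentage of identical bases among the aligned coding bases for each pair of the 7 Schlafen genes, from GENCODE M21 coding sequences of C57BL/6J. Slfn3 with Slfn4 (92.2%) and Slfn8 with Slfn9 (92.7%) are the closest pairs, and the block of Slfn1 to Slfn4 stands above the pairs that join it to Slfn5, Slfn8 and Slfn9.

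Sequences this similar matter for the values, since a read that matches more than 1 gene cannot be assigned from its bases. Of all words of 50 bases in the annotated transcripts, 14.6% of those of Slfn8 and 11.2% of those of Slfn9 also occurred in another Schlafen transcript, most often in the pseudogene Slfn10-ps. For Slfn4 and Slfn3 the shares were 8.15% and 7.39%, for Slfn2 4.27%, for Slfn1 0.606%, and for Slfn5 none of 6324 words was shared. At 100 bases the shares fell to 3.38% for Slfn8 and 3.71% for Slfn9 and to 0.128% or less for the other members. The handling of reads with several matches is not given in the sources used here, so their effect on each value is unknown. The shares were largest for Slfn8 and Slfn9, but the effect also depends on the level of the partner gene. Of the 50-base words of Slfn4, 6.28% occurred in Slfn3, which had far fewer fragments than Slfn4 in both KOs. In the WTs Slfn3 had more fragments than Slfn4, 8 against 4 in C57BL/6J WT and 11 against 4 in BALB/c WT.

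The promoters of the members carried different short sequences. A RefSeq window (GRCm38.p6) of 250 bases before to 50 bases after the start site was available for all 7 genes. It was searched on both strands for the core of an interferon-stimulated response element, which is GAAA, any 2 bases, and GAAA again, bound by interferon regulatory factors. It was found in Slfn5, Slfn8 and Slfn9 and in none of the windows of Slfn1, Slfn2, Slfn3 and Slfn4, while 3.44% of 32851 mouse promoter windows held it. Among 40 interferon-induced genes from the lists described below that had a window under the same symbol, 21 held it. The gamma-activated motif TTCNNNGAA was in no Schlafen window, in 8.3% of all windows and in 13 of the 40 interferon-induced genes. At a share of 8.3%, its absence from 7 genes says nothing particular about the family. The stretch ACTTCCTGG was picked after the sequences had been read, because the windows of Slfn1, Slfn2, Slfn3 and Slfn4 share it. It was in none of the other members, in 0.843% of all windows and in 2 of the 40 interferon-induced genes. Its TTCC core is the binding core of ETS factors. The stretches below show these matches in their surroundings, 5′ to 3′ on the strand of each gene, with the match in capitals.
Slfn5 (plus strand, chr11:82951927-82951976): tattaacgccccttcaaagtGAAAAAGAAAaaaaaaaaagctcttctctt
Slfn8 (minus strand, chr11:83020829-83020878): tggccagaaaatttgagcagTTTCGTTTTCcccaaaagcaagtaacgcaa
Slfn9 (minus strand, chr11:82991846-82991895): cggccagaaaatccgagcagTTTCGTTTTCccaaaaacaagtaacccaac
Slfn1 (plus strand, chr11:83116726-83116774): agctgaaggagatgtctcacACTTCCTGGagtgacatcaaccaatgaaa
Slfn2 (plus strand, chr11:83065037-83065085): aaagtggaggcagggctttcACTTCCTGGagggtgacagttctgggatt
Slfn3 (plus strand, chr11:83191268-83191316): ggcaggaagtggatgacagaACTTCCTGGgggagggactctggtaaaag
Slfn4 (plus strand, chr11:83175093-83175141): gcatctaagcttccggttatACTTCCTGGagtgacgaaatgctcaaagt

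Counted from the start site, the match began at position -155 in Slfn5, -48 in Slfn8 and -45 in Slfn9. It began at -74 in Slfn1, -55 in Slfn2, -42 in Slfn3 and -73 in Slfn4. Slfn8 has a second annotated start site, from which its match lay at -136. For Slfn5 the window with the match (82951852 to 82952151) belongs to a start site that lies downstream of the gene's first annotated base, so the printed stretch is inside the annotated span of the gene. A match of letters is a description and not a shown binding site, and a window without a match may hold a variant of the motif.

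Levels are given in the authors' FPKM, counts of fragments corrected for transcript length and library size, which allow levels of different genes to be set side by side. Before log2 ratios between libraries were formed, a pseudocount of 1 was added to each FPKM, which understates differences of low genes. Depth was estimated from the steps that single fragments make in the lowest values, and it was about 8360990 to 9929240 fragments per library. For 6 of the 7 members the 4 FPKM values corresponded to whole fragments (all within 0.02 of a whole number), and for Slfn8, which has 6 annotated transcripts, fragments were only approximated. Intervals below are exact 95% intervals for such fragments and cover counting error alone, not differences between animals or preparations.

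The libraries themselves differed in more than genotype. Fibroblast genes were present in all of them. The summed FPKM of 8 fibroblast markers ranged from 10403 to 11281, with Dcn as the largest part at 5544 to 6520 FPKM. Each of the 8 stayed within 2-fold in the KO comparisons. Pdpn, the gene of podoplanin, ranged from 158 FPKM in C57BL/6J WT to 293 FPKM in the Rag2 KO. In the library labelled IL-10 KO Il10 stood at 129.9 FPKM, against 3.33 FPKM in C57BL/6J WT, so the whole-gene value does not check the deletion, and Rag2 was listed at 0.712 FPKM in the library labelled Rag2 KO and at 0 in BALB/c WT. The B cell gene Cd79a had 0.829 FPKM in the Rag2 KO, against 11.4 FPKM in BALB/c WT. Xist and the Y-linked Ddx3y had 44.9 and 0.0269 FPKM in the IL-10 KO, against 23.0 and 16.9 FPKM in C57BL/6J WT. In the Rag2 KO they had 0.105 and 31.5 FPKM, and in BALB/c WT 0.0509 and 36.3 FPKM. The C57BL/6J pair thus differs in sex-linked transcripts, and the WTs differ in them as well. The housekeeping gene Gapdh stood between 0.196 and 0.349 FPKM in all libraries, so a value near 0 in these files need not mean a silent gene.

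The most expressed members were Slfn5 and Slfn2. Slfn5 had 22.5 FPKM in the IL-10 KO and 8.33 FPKM in C57BL/6J WT. It had 25.3 FPKM in the Rag2 KO and 6.19 FPKM in BALB/c WT. Both KOs were thus above both WTs, and the highest was the Rag2 KO.

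Slfn2 had 44.9 FPKM in the IL-10 KO and 4.005 FPKM in C57BL/6J WT. It had 21.9 FPKM in the Rag2 KO and 5.44 FPKM in BALB/c WT. Unlike Slfn5, it was highest in the IL-10 KO. That library was also the one in which Slfn2 stood above Slfn5 (1.99-fold), whereas the quotient of Slfn2 to Slfn5 was 0.481 in C57BL/6J WT, 0.869 in the Rag2 KO and 0.879 in BALB/c WT.

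Slfn4 spanned the widest range of the family. It had 21.6 FPKM in the IL-10 KO, from 680 fragments, and 0.122 FPKM in C57BL/6J WT, from 4 fragments. It had 7.72 FPKM in the Rag2 KO, from 281 fragments, and 0.107 FPKM in BALB/c WT, from 4 fragments. In both WTs it was the lowest of the 7 genes, and in the IL-10 KO it was the third.

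Slfn1, the founding member, had 6.79 FPKM in the IL-10 KO, from 94 fragments, and 0.208 FPKM in C57BL/6J WT, from 3 fragments. It had 2.56 FPKM in the Rag2 KO, from 41 fragments, and 0.669 FPKM in BALB/c WT, from 11 fragments. Its order over the libraries was that of Slfn2 and its level was lower in each: Slfn2 had 6.61 to 19.3 times the FPKM of Slfn1.

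Slfn8 had 11.5 FPKM in the IL-10 KO and 2.21 FPKM in C57BL/6J WT. It had 9.9 FPKM in the Rag2 KO and 1.03 FPKM in BALB/c WT. Slfn9, its closest relative, was at 1.11 FPKM in the IL-10 KO (34 fragments), 0.439 FPKM in C57BL/6J WT (14), 1.89 FPKM in the Rag2 KO (67) and 0.412 FPKM in BALB/c WT (15). Slfn8 exceeded Slfn9 in each library, by 10.4-fold in the IL-10 KO and 5.04-fold in C57BL/6J WT, and by 5.23-fold in the Rag2 KO and 2.5-fold in BALB/c WT.

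Slfn3 was low and nearly level. It had 0.740 FPKM in the IL-10 KO, from 10 fragments, and 0.569 FPKM in C57BL/6J WT, from 8 fragments. It had 0.449 FPKM in the Rag2 KO, from 7 fragments, and 0.686 FPKM in BALB/c WT, from 11 fragments. Reads shared with Slfn4 could weigh on values this low, which was not tested. Although its coding sequence is 92.2% identical to that of its neighbour Slfn4, Slfn4 had 29.2 times the FPKM of Slfn3 in the IL-10 KO and 17.2 times in the Rag2 KO, against 0.214 times in C57BL/6J WT and 0.156 times in BALB/c WT.

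**Figure D2:**
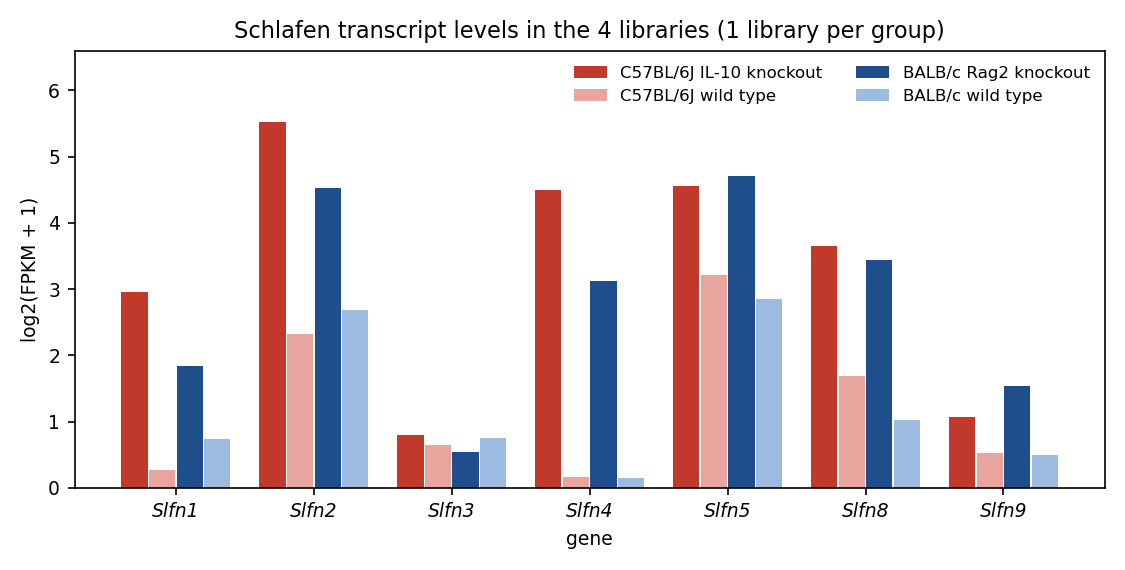
Bars show log2 of FPKM plus 1 for the 7 Schlafen genes in the 4 libraries, 1 library per group and without error bars for that reason. The bars of both KO libraries exceed those of both WTs for each gene but Slfn3, and Slfn4 spans the widest range, 21.6 FPKM in the IL-10 KO against 0.107 FPKM in BALB/c WT.

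The order of the levels differed between libraries. In the IL-10 KO it ran Slfn2, Slfn5, Slfn4, Slfn8, Slfn1, Slfn9, Slfn3, with overlapping counting intervals for the neighbours Slfn5 and Slfn4 and for Slfn9 and Slfn3. In C57BL/6J WT it ran Slfn5, Slfn2, Slfn8, Slfn3, Slfn9, Slfn1, Slfn4, and the intervals of each neighbouring pair from Slfn3 down overlapped. In the Rag2 KO the order was Slfn5, Slfn2, Slfn8, Slfn4, Slfn1, Slfn9, Slfn3, with overlaps for Slfn5 and Slfn2 and for Slfn1 and Slfn9. In BALB/c WT it was Slfn5, Slfn2, Slfn8, Slfn3, Slfn1, Slfn9, Slfn4, where Slfn5 overlapped with Slfn2 and each pair from Slfn8 down overlapped.

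Summed over the 7 genes, Schlafen FPKM was 109.2 in the IL-10 KO and 15.9 in C57BL/6J WT, a 6.87-fold difference. It was 69.7 in the Rag2 KO and 14.5 in BALB/c WT, a 4.80-fold difference. The make-up of that sum differed too. Slfn5 held 20.6% of it in the IL-10 KO, 52.4% in C57BL/6J WT, 36.2% in the Rag2 KO and 42.6% in BALB/c WT. Slfn4 held 19.8% in the IL-10 KO and 11.1% in the Rag2 KO, against 0.768% in C57BL/6J WT and 0.736% in BALB/c WT.

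Setting the IL-10 KO against its C57BL/6J WT asks how stromal cells differ in mice without IL-10, and the series title names type I interferon signalling as its theme. On the FPKM plus 1 scale, 5 of the 7 Schlafen genes were higher by 2-fold or more and 0 were lower by as much. Of 12790 genes that reached 1 FPKM in one of the libraries, 10.1% were higher and 3.82% lower by 2-fold or more. Of the members 6 met that minimum, but Slfn1, Slfn4 and Slfn9 met it through the KO library alone, so the count is given over all 7. The median log2 ratio of the 7 was 1.964, against 0.00 for the genes compared.

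Slfn4 had the largest log2 ratio, 4.33, which 0.328% of the genes compared exceeded. Its FPKM differed 177-fold, with a counting interval of 68.8-fold to 651-fold, wide because WT rests on 4 fragments. Slfn2 followed at 3.197 (11.2-fold, interval 8.40 to 15.2) and Slfn1 at 2.69 (32.6-fold, interval 10.8 to 161). Their order in fold and in log2 ratio differs because the pseudocount weighs on Slfn1, with 3 fragments in WT.

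Among the long members, Slfn8 had a log2 ratio of 1.964 (5.21-fold, approximate interval 4.06 to 6.83) and Slfn5 one of 1.33 (2.71-fold, interval 2.42 to 3.03). Slfn9 stayed below the 2-fold line with the pseudocount, at 0.55, although its FPKM differed 2.53-fold (interval 1.32 to 5.1). For Slfn3 the log2 ratio was 0.15 and the interval of its fold, 0.462 to 3.79, included 1.

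The Rag2 KO, set against its BALB/c WT, gives these stromal cells in mice without mature T and B cells. Here 6 of the 7 genes were higher by 2-fold or more and 0 were lower by as much, while 4.42% of 12336 genes compared were higher and 2.03% lower by that fold. Slfn1, Slfn4 and Slfn9 again met the minimum FPKM through the KO library alone, and Slfn3 did not meet it. The median log2 ratio of the 7 was 1.83, against 0.00 for the genes compared.

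Slfn4 again led with a log2 ratio of 2.98 (72.3-fold, interval 27.9 to 267). It was followed by Slfn8 at 2.43 (9.61-fold, approximate interval 6.89 to 13.7), Slfn5 at 1.87 (4.08-fold, interval 3.63 to 4.59) and Slfn2 at 1.83 (4.04-fold, interval 3.14 to 5.23). Slfn1 and Slfn9 were just past the 2-fold line, at 1.09 (3.83-fold, interval 1.94 to 8.27) and 1.03 (4.59-fold, interval 2.6 to 8.66). Slfn3 had a log2 ratio of -0.22, with an interval of its fold from 0.215 to 1.85.

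**Figure D3:**
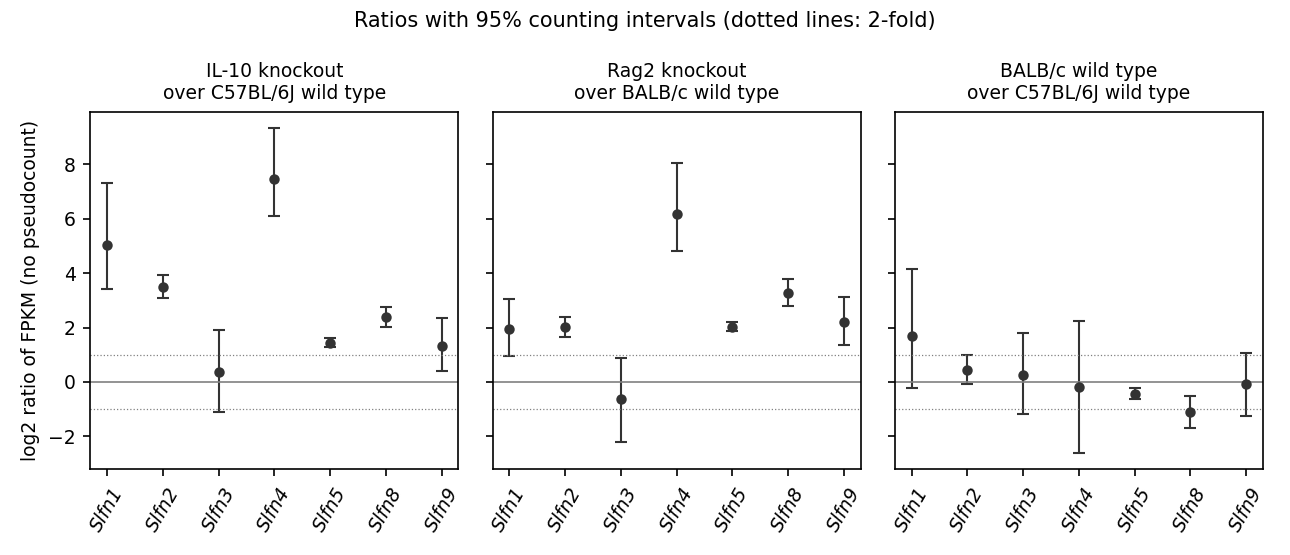
Points show the log2 ratio of FPKM without a pseudocount for each Schlafen gene in the 3 comparisons, and bars the 95% counting interval, which leaves out variation between animals. The intervals of each gene but Slfn3 lie above 0 in both KO panels, and those of Slfn4 are the highest; the Slfn8 intervals rest on approximate fragments.

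With BALB/c over C57BL/6J, 0 of the 7 genes were 2-fold higher and 0 were 2-fold lower, beside 1.81% and 2.17% of 12290 genes compared, shares at which 0 of 7 says nothing particular about the family; only Slfn2, Slfn5 and Slfn8 met the minimum FPKM. Slfn5 was lower in BALB/c, with a log2 ratio of -0.38 and a fold of 0.743 (interval 0.644 to 0.858). Slfn8 was lower as well, at -0.66 and 0.466-fold (approximate interval 0.309 to 0.7), which is past 2-fold without the pseudocount. Slfn1 had a fold of 3.21 without the pseudocount, with an interval of 0.849 to 17.9, from 11 fragments in BALB/c WT against 3 in C57BL/6J WT. For Slfn1, Slfn2, Slfn3, Slfn4 and Slfn9 the intervals included 1. Reads of BALB/c mice were compared with a reference assembly of C57BL/6J, and whether sequence differences between the strains lowered the matches in BALB/c was not tested. The WT libraries also differ in Xist, at 0.0509 FPKM in BALB/c WT against 23.0 FPKM in C57BL/6J WT. This comparison shares a library with each KO comparison.

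The members divided by how their ratios in the IL-10 and Rag2 comparisons relate, 2 comparisons that share no library. For Slfn2 the log2 ratio of the IL-10 comparison exceeded that of the Rag2 comparison by 1.36, for Slfn1 by 1.59, for Slfn4 by 1.35 and for the nearly level Slfn3 by 0.37. Slfn5, Slfn8 and Slfn9 had differences of the other sign, -0.53, -0.46 and -0.48. Without a pseudocount the difference was 1.47 for Slfn2 (95% counting interval 0.93 to 2.02, a normal approximation on the log scale), 3.09 for Slfn1 (1.17 to 5.01), -0.59 for Slfn5 (-0.83 to -0.36) and -0.88 for Slfn8 (approximately -1.48 to -0.28). For Slfn4 (1.29), Slfn3 (0.99) and Slfn9 (-0.86) the intervals included 0.

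The 3 genes with a negative difference, Slfn5, Slfn9 and Slfn8, lie together on the chromosome ahead of Slfn2, Slfn1, Slfn4 and Slfn3, which had a positive one. This pattern was noticed in the data, it rests on 1 library per group, and for 3 of the 7 genes the sign is within counting error. Strain, genotype, animal and the difference in sex-linked transcripts cannot be told apart in it.

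**Figure D4:**
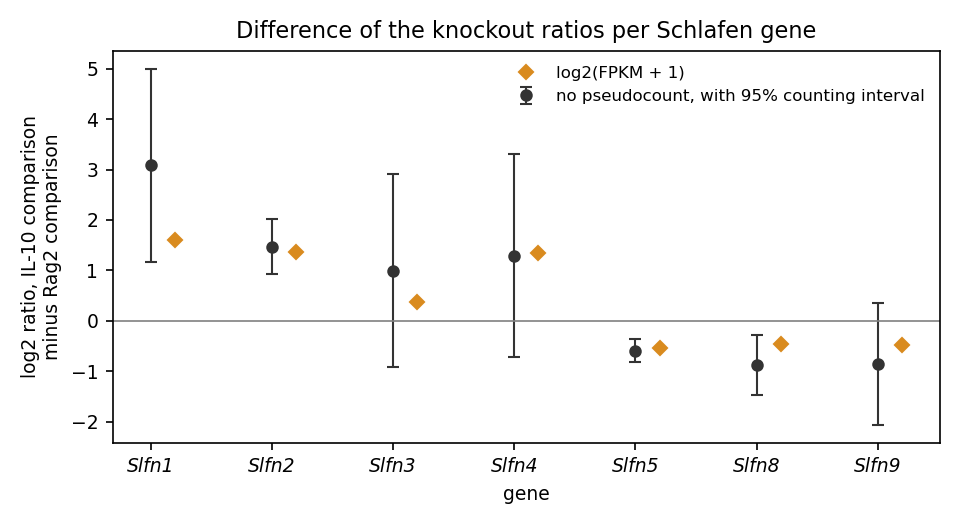
Circles show, for each Schlafen gene, the log2 ratio of the IL-10 comparison minus that of the Rag2 comparison without a pseudocount, with 95% counting intervals, and diamonds the same difference with a pseudocount of 1. Slfn1 to Slfn4 lie above 0 and Slfn5, Slfn8 and Slfn9 below it, and the intervals of Slfn3, Slfn4 and Slfn9 include 0.

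**Figure D5:**
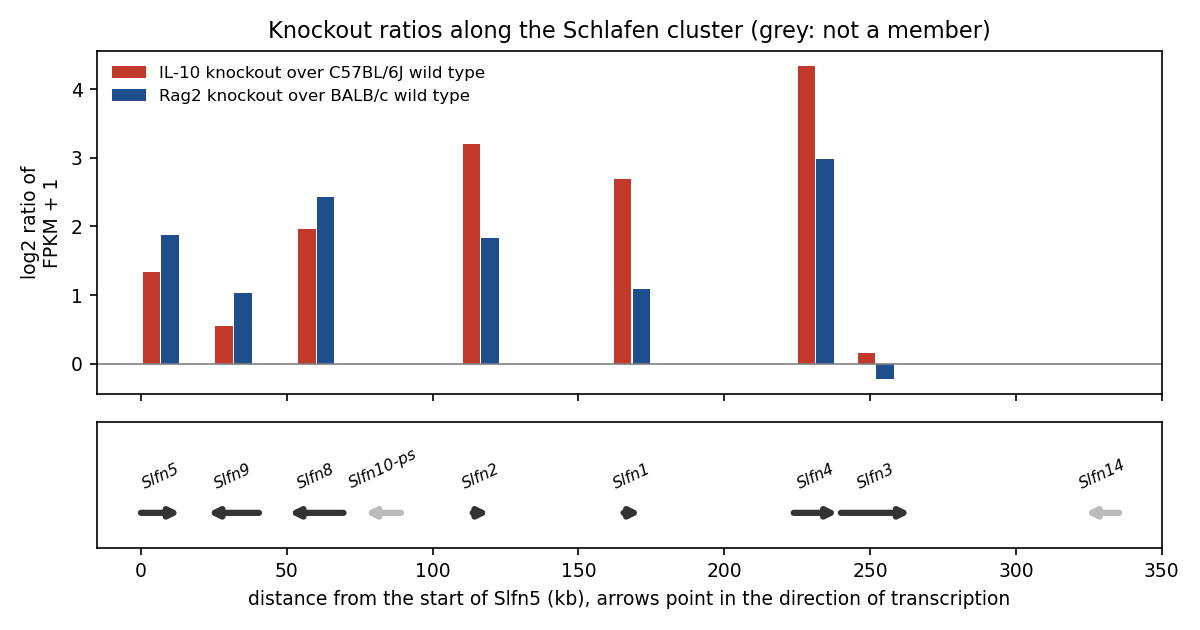
Bars show the log2 ratio of FPKM plus 1 for the IL-10 and the Rag2 comparison, placed at the middle of each Schlafen gene, over a map of the cluster in kb from the start of Slfn5. The Rag2 bar is the taller one at Slfn5, Slfn9 and Slfn8 and the IL-10 bar at Slfn2, Slfn1, Slfn4 and Slfn3, where the Rag2 bar is slightly below 0.

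Other genes of the neighbourhood were looked at to see whether the whole region differed. The pseudogene Slfn10-ps had 1.302 FPKM in the IL-10 KO (36 fragments) and 0.139 FPKM in C57BL/6J WT (4). It had 0.344 FPKM in the Rag2 KO (11) and 0.0609 FPKM in BALB/c WT (2). Of its words of 50 bases, 19.7% also occurred in another Schlafen transcript. Its values may therefore include reads of other members, which was not tested. Slfn14, listed as Slfn14-ps, and the related Slfnl1 were listed at 0 in both KOs and reached at most 2 fragments in the WTs. Slfn5os, a transcript antisense to Slfn5, was listed at 0 in all 4 libraries. Unc45b, Nle1 and Fndc8, the 3 listed genes ahead of the cluster, had log2 ratios between -0.01 and 0.27 in the IL-10 comparison and between -0.23 and -0.09 in the Rag2 comparison. Nle1 had 4.23 to 4.56 FPKM. Unc45b had 0.569 FPKM or less and Fndc8 0.107 FPKM or less in each library, levels at which the pseudocount keeps ratios small. Behind it, AA465934 and AI450353 had FPKM of 1.502 or less in each library. Snord7, a small nucleolar RNA, had 643 FPKM in C57BL/6J WT and was listed at 0 in the other libraries. It spans only 83294304 to 83294399, a length at which few fragments give a high FPKM, and its fragments were not estimated. AI662270, between Slfn3 and Slfn14, had 13.7 FPKM in the IL-10 KO against 2.096 FPKM in C57BL/6J WT, and 3.78 FPKM in the Rag2 KO against 4.43 FPKM in BALB/c WT.

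Most of the listed interferon-induced genes were higher in both KOs than in their WTs. A list of genes induced by type I interferon held 31 genes. Of these, 22 were at least 2-fold higher and 0 lower in the IL-10 comparison, with a median log2 ratio of 1.40. In the Rag2 comparison 20 of them were higher and 0 lower, with a median of 1.37. Isg15, a ubiquitin-like modifier, had 206 FPKM in the IL-10 KO against 44.4 FPKM in C57BL/6J WT, and 203 FPKM in the Rag2 KO against 43.9 FPKM in BALB/c WT, while Oas2, which makes the activator of RNase L, had 7.00 FPKM in the IL-10 KO against 0.844 FPKM in C57BL/6J WT, and 8.26 FPKM in the Rag2 KO against 0.411 FPKM in BALB/c WT.

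A list of genes induced by interferon gamma held 22 genes, and whether these lists separate the interferons was not tested. Of the 22 genes, 20 were at least 2-fold higher in the IL-10 comparison (median 2.28) and 18 in the Rag2 comparison (median 2.37). In both comparisons 0 were lower. The guanylate-binding protein gene Gbp4 had 28.6 FPKM in the IL-10 KO against 2.25 FPKM in C57BL/6J WT, and 224 FPKM in the Rag2 KO against 8.22 FPKM in BALB/c WT. Of 12 interferon, receptor and signalling genes, 4 were higher in the IL-10 comparison, among them Ifng, Stat2 and Ifngr2, and 3 in the Rag2 comparison, among them Ifng and Stat2, and 0 were lower. Ifng, the gene of interferon gamma, had log2 ratios of 3.51 for IL-10 KO over WT and 1.83 for Rag2 KO over WT.

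Leukocyte genes were present although the sort gate excluded CD45-positive cells. Most of the listed leukocyte markers were at least 2-fold higher in the IL-10 comparison, while in the Rag2 comparison some were higher and others lower. In bulk RNA fewer cells of a type and less RNA per cell cannot be told apart. All 10 pan-leukocyte markers were at least 2-fold higher in the IL-10 KO, with a summed FPKM of 745 against 75.0 in C57BL/6J WT. In the Rag2 comparison 1 was higher and 1 lower, and the sum was 198 in the Rag2 KO against 139 in BALB/c WT. Ptprc, which encodes CD45, had a log2 ratio of 3.35 for IL-10, beside 3.197 for Slfn2 and 1.33 for Slfn5, and one of 0.43 for Rag2, beside 1.83 for Slfn2 and 1.87 for Slfn5.

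Of the lymphocyte markers, 10 of 11 T cell genes were at least 2-fold higher in the IL-10 comparison (summed FPKM 119.6 in the KO against 8.99 in WT), and in the Rag2 comparison 3 were lower and 0 higher (7.99 in the KO against 21.8 in WT). Of 8 B and plasma cell genes 7 were higher in the IL-10 comparison and 8 lower in the Rag2 comparison; they summed to 498 FPKM in the IL-10 KO against 249 FPKM in C57BL/6J WT, and to 2.63 FPKM in the Rag2 KO against 467 FPKM in BALB/c WT. In the Rag2 KO the T cell genes Cd3g and Cd5 and the B cell genes Pou2af1 and Fcrla were listed at 0. Slfn1 had 41 fragments in the Rag2 KO against 11 in BALB/c WT, and Slfn2 had 310 in the Rag2 KO against 79 in BALB/c WT. Which cells these fragments came from was not tested.

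Many myeloid markers were higher in both comparisons. Of 10 macrophage and monocyte genes 8 were at least 2-fold higher in the IL-10 comparison (summed FPKM 820 in the KO against 109 in WT) and 4 in the Rag2 comparison (466 in the KO against 222 in WT), with 0 lower. Of 9 neutrophil genes 9 were higher in the IL-10 comparison (summed FPKM 3877 in the KO against 10.5 in WT) and 6 in the Rag2 comparison (246 in the KO against 24.9 in WT); Cxcr2, Ngp, Camp and Mmp8 were listed at 0 in C57BL/6J WT and Cxcr2 also in BALB/c WT. The part of leukocytes in the Schlafen values was not tested.

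The 8 epithelial markers were at least 2-fold higher in both comparisons (summed FPKM 275 in the IL-10 KO against 67.8 in its WT, and 112 in the Rag2 KO against 19.999 in its WT). Of 7 endothelial markers 1 was lower in the IL-10 comparison, Lyve1, and none passed 2-fold in the Rag2 comparison. The 8 fibroblast markers stayed within 2-fold in both, and 4 of 5 smooth muscle markers were lower by 2-fold or more without IL-10 and 3 of 5 without Rag2.

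The genes whose profile over the 4 libraries lay nearest to each Schlafen gene were named by the smallest root mean square difference of centred log2 of FPKM plus 1, among 8783 genes with an established symbol and an FPKM of at least 5 in some library. These are descriptions over 4 values per gene. For Slfn1 they included Cd80, a costimulatory ligand of antigen-presenting cells (0.04), and Lrrc25 (0.06). For Slfn2 they included Gpr35 (0.05) and the chemokine gene Cxcl3 (0.09). For Slfn4 they were H2-Q6, a nonclassical MHC class I gene (0.12), the cytokine gene Il1b (0.15) and Csf3r, the receptor of the neutrophil growth factor G-CSF (0.15).

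For Slfn5 the nearest were Psat1, an enzyme of serine synthesis (0.07), the interferon-induced Ifi27l2a (0.08) and the monocyte surface gene Ly6c2 (0.08). For Slfn8 they were the chemokine genes Cxcl2 (0.09) and Ccl4 (0.11) and the antiviral gene Rsad2 (0.12), and for Slfn9 they were Art3 (0.04), the lipase gene Lipg (0.04) and Hsd17b12, an enzyme of fatty acid elongation (0.06). Cd80 had 13.2 FPKM in the IL-10 KO against 1.303 FPKM in C57BL/6J WT, and 5.46 FPKM in the Rag2 KO against 1.95 FPKM in BALB/c WT. Ifi27l2a had 1697 FPKM in the IL-10 KO against 631 FPKM in C57BL/6J WT, and 1858 FPKM in the Rag2 KO against 449.9 FPKM in BALB/c WT.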

How the data were processed

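The authors deposited 1 FPKM value per gene symbol and library. Per the submitters' processing notes, the tools were Cuffdiff 2.2.1, TopHat2 2.1.1, SAMtools 0.1.18 and Bowtie2 2.2.8, with mm10; annotation, strand setting and library scaling: not given in the sources used here. Per the labels, libraries were made with a stranded mRNA kit.

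The members and lists were chosen with earlier results of these data known. From the deposited FPKM, log2 ratios with a pseudocount of 1 were computed in Python 3.11.15 with pandas 2.3.3. Genes that reached 1 FPKM in one of the libraries compared formed the background, and a fold of 2 the threshold. Depth was fitted on 289 low genes with 1 annotated transcript, of which 192 lay within 5% of the line (length offset 207 nt), and the recovery was tested on simulated data. Fold intervals are Clopper-Pearson intervals (scipy 1.17.1), and they cover counting error only. Transcripts and coding sequences came from GENCODE M21 and were aligned with Biopython 1.88 without cost for end gaps. Positions and promoters came from RefSeq.

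All Schlafen genes were named. From each list up to 4 members with the largest ratio and an FPKM of at least 5 could be named, and 3 most similar genes for each member that reached 1 FPKM. Cd5, Fcrla, Cxcr2, Camp and Mmp8 were named outside this rule, after their values were seen, because they are listed at 0. Alternatives were other pseudocounts, filters and scalings. Some genes that this rule selects are not reported here.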

Additional observations from a re-analysis of the deposited data

Results flagged for a closer look

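Slfn3 moved in opposite directions in the knockout comparisons, higher in the IL-10 knockout and lower in the Rag2 knockout, each relative to its wild type. The difference between the log2 ratios was 0.37 and was not tested. It rests on 10 fragments in the IL-10 knockout against 8 in C57BL/6J wild type and on 7 in the Rag2 knockout against 11 in BALB/c wild type, and both counting intervals included no difference.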

How the results depend on the processing

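No paired analysis was possible because each group has 1 library, and for the same reason no library could be left out. Of 84 alternative values of the members' log2 ratios, 12 moved beyond their counting error (4 with a pseudocount of 0.1 and 8 with one of 5) and 0 turned direction; the 28 alternative IL-10 minus Rag2 differences moved 0 times. The Schlafen count in the IL-10 comparison was 5 or 6 under each alternative, and in the Rag2 comparison it was 4 to 6. It was 4 with a pseudocount of 5 or an FPKM minimum of 5, and 5 when libraries were rescaled to the sum without small RNAs, which shifts log2 ratios by -0.14 in both KO comparisons. Between WTs a pseudocount of 0.1 put 1 member (Slfn1) past 2-fold higher and 1 (Slfn8) past 2-fold lower. Counts over all genes also depended on these settings, and the FPKM minimum of 5 left fewer genes to compare. In the IL-10 comparison, genes higher by 2-fold were 846 of 9093 with that minimum (9.30%, against 10.1% of 12790 in the main setting). They were 611 with a pseudocount of 5, and genes lower were 787 with a pseudocount of 0.1 and 182 with 5. In the Rag2 comparison, genes higher were 278 with a pseudocount of 5. Genes lower were 159 of 8775 with the minimum of 5 (1.81%, against 2.03% of 12336), 532 with a pseudocount of 0.1 and 68 with 5. Between WTs, genes higher were 129 of 8697 with the minimum of 5 (1.48%, against 1.81% of 12290). They were 477 with a pseudocount of 0.1 and 56 with 5, and genes lower were 452 and 104 with these pseudocounts. Low counts limit Slfn1, Slfn3, Slfn4 and Slfn9, each with 15 or fewer fragments in either WT.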
